A study of Mus musculus with 28 samples.

Results

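The genes described here are 9 members of the cation-chloride cotransport machinery: the cotransporter NKCC1 (Slc12a2), the cotransporters KCC1 (Slc12a4) and KCC4 (Slc12a7), the kinases WNK1 (Wnk1) and WNK4 (Wnk4), the kinases SPAK (Stk39) and OSR1 (Oxsr1), and the kinase cofactors MO25 alpha (Cab39) and MO25 beta (Cab39l). They were chosen by name and matched by symbol to the Entrez identifiers of the deposited count tables. All 9 had a row among 27179 identifiers. All 9 passed the filter on low counts, among 14983 genes tested in young libraries and 16065 genes tested in aged libraries.

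The 28 libraries, in 7 groups of 4, each hold mRNA of the lateral ventricle choroid plexus of 1 male mouse. Times are zeitgeber times (ZT), hours after lights-on. The aged mice were 12 to 14 months old and comprised J20+ mice taken at night (ZT18), J20+ mice taken by day (ZT6), J20- littermates (called WT here) taken at night, and J20- littermates taken by day. The J20 transgene encodes human amyloid precursor protein with mutations found in familial Alzheimer's disease and is driven by a platelet-derived growth factor promoter that is active mainly in neurons. The young mice were wild-type C57/BL6 animals, 3 months old in the sample labels and up to 4 months in the design text. They comprised mice taken at night (ZT18), mice taken by day (ZT6) after 6 h of sleep disruption (SD), and undisturbed mice taken by day (ZT6). All animals were perfused with buffered saline before dissection. The 16 aged libraries form batch 2 and the 12 young libraries form batch 1 in the labels, so age and batch cannot be told apart.

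The choroid plexus epithelium secretes cerebrospinal fluid by moving sodium, potassium, chloride and bicarbonate between blood and ventricle. NKCC1 sits in the ventricle-facing membrane of these cells and carries sodium, potassium and chloride together, whereas KCC cotransporters carry potassium and chloride out of cells. WNK kinases sense chloride and osmotic stress and phosphorylate SPAK and OSR1, which bind MO25 proteins, activate NKCC1 and inhibit KCC cotransporters. Phosphorylation is not measured by RNA sequencing, and all values below are levels of mRNA.

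RefSeq promoter windows (GRCm38.p6, 250 bases before an annotated start) were matched for 8 of the 9 genes, all but Slc12a2. They were searched on both strands for 3 motifs: the E-box CACGTG bound by the clock factors BMAL1 and CLOCK, the D-box TTATGTAA bound by DBP, and the GC box GGGCGG bound by SP1. For 4 genes 1 window each is shown, with motif matches in capitals. Stk39 and Cab39l are shown because their levels followed each other most closely across aged libraries, Slc12a7 because it holds the E-box, and Slc12a4 because its level differed widely between the batches.
Stk39 (chr2:68471982-68472231, minus strand): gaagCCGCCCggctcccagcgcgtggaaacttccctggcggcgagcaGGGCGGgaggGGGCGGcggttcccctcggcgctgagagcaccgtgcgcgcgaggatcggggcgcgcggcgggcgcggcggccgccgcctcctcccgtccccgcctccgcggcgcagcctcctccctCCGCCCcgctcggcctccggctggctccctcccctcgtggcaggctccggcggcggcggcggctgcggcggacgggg
Cab39l (chr14:59440713-59440962, plus strand): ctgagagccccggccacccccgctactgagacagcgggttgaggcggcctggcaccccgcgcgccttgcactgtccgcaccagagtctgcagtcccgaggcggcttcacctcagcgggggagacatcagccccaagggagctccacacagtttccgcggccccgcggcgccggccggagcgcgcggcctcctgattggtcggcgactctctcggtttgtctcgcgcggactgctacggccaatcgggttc
Slc12a7 (chr13:73763447-73763696, plus strand): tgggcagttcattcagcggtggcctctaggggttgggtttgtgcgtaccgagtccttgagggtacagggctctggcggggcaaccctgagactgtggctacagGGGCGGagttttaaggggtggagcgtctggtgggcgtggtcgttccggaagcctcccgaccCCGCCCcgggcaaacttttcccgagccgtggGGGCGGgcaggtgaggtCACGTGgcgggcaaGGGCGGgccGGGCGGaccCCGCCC
Slc12a4 (chr8:105966116-105966365, minus strand): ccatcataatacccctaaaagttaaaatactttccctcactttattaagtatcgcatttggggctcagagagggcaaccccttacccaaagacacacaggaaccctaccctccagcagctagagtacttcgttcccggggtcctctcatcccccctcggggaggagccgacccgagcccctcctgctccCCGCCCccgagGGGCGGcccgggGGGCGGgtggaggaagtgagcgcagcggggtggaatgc
An E-box was present in 1 of 8 genes (Slc12a7), against 6.02% of 32851 mouse promoter windows of the same length. It was absent from the other Slc12a7 window (chr13:73763410-73763659). Both windows lie inside the annotated span of the gene (chr13:73733052-73816754). The other Cab39l window (chr14:59478701-59478950, 46.0% GC) held none of the motifs. A D-box was present in 0 of 8 genes, against 0.819% of windows. A GC box was present in 7 of 8 genes (all but Cab39l), against 32.7% of windows. The 8 genes have 10 windows and each gene was counted once, so these shares differ in unit. The median GC content of all windows was 52.4%, against 60.8% to 82.4% in the windows of the 7 genes. The part of GC content in this count was not tested. No match of one motif overlapped a match of another. A match describes the letters and does not show that a factor binds there.

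Total counts per library ran from 14632090 to 43885900. All 20 markers of choroid plexus epithelium fixed for this work were detected in every group, and their summed level ran from 29800 to 52239 CPM per library, where CPM is the count of a gene relative to the scaled total of its library. The clock genes Arntl and Nr1d1 served as a check of the time labels. In young mice Arntl was 2.50 ± 0.18 higher (log2 fold change ± SE) and Nr1d1 3.02 ± 0.24 lower at night than by day (edgeR adjusted p of 4.5e-05 and 8.6e-05). Nr1d1 was 2.13 ± 0.24 lower at night in J20+ mice (edgeR adjusted p = 0.00194) and had a value of -1.51 ± 0.23 in WT mice (0.0583). J20+ night library 2 stood apart from the other libraries of its group in the level of several of the 9 genes and of the epithelial markers, and results that rest on it are given with and without it. In bulk tissue, fewer cells of a type and less RNA per cell cannot be told apart.

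Per kilobase of the longest transcript, the MO25 beta gene Cab39l, the SPAK gene Stk39 and the NKCC1 gene Slc12a2 were the most abundant of the 9 genes in every group but 1. Cab39l had group means of 205 to 655 CPM per kilobase, Stk39 of 195 to 498 and Slc12a2 of 80.2 to 423. The exception was the WT night group, in which Slc12a4 (98.4 ± 5.65 CPM per kilobase) stood above Slc12a2 (80.2 ± 23.5, SD, n = 4), and these means differed by less than the spread of Slc12a2. Counted per kilobase of all annotated exons, Stk39 (314 to 355 in the young groups) and Cab39l (303 to 340) changed places, so their order depends on the length used. The MO25 alpha gene Cab39 and the WNK1 gene Wnk1 formed a middle tier, with 29.8 to 83.3 and 24.9 to 63.2 CPM per kilobase of the longest transcript. The OSR1 gene Oxsr1 (14.1 to 21.8), the KCC4 gene Slc12a7 (5.87 to 17.8) and the WNK4 gene Wnk4 (1.74 to 13.8) were lowest. Slc12a4 stood in the lowest tier in young groups (19.1 to 22.01) and among the 4 highest in aged groups (98.4 to 126). These tiers also depend on the length used. Per kilobase of all annotated exons, Wnk1 in the WT night group (12.4) stood below Oxsr1 (13.5) and Wnk4 (13.7).

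Within a library, the SPAK gene exceeded its paralog by a median of 18.9-fold in aged libraries (9.93 to 31.4, n = 16) and 22.9-fold in young libraries (18.3 to 26, n = 12), per kilobase of the longest transcript. Cab39l exceeded Cab39 8.38-fold in aged libraries and 8.32-fold in young libraries by the same measure. SPAK and MO25 beta supplied most of the kinase and cofactor mRNA of their families at both ages. The longest run of identical bases between the longest transcripts of these pairs was 15 bases for Stk39 and Oxsr1 and 13 bases for Cab39 and Cab39l. It was 28 bases for Slc12a4 and Slc12a7 and 17 bases for Wnk1 and Wnk4.

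**Figure D1:**
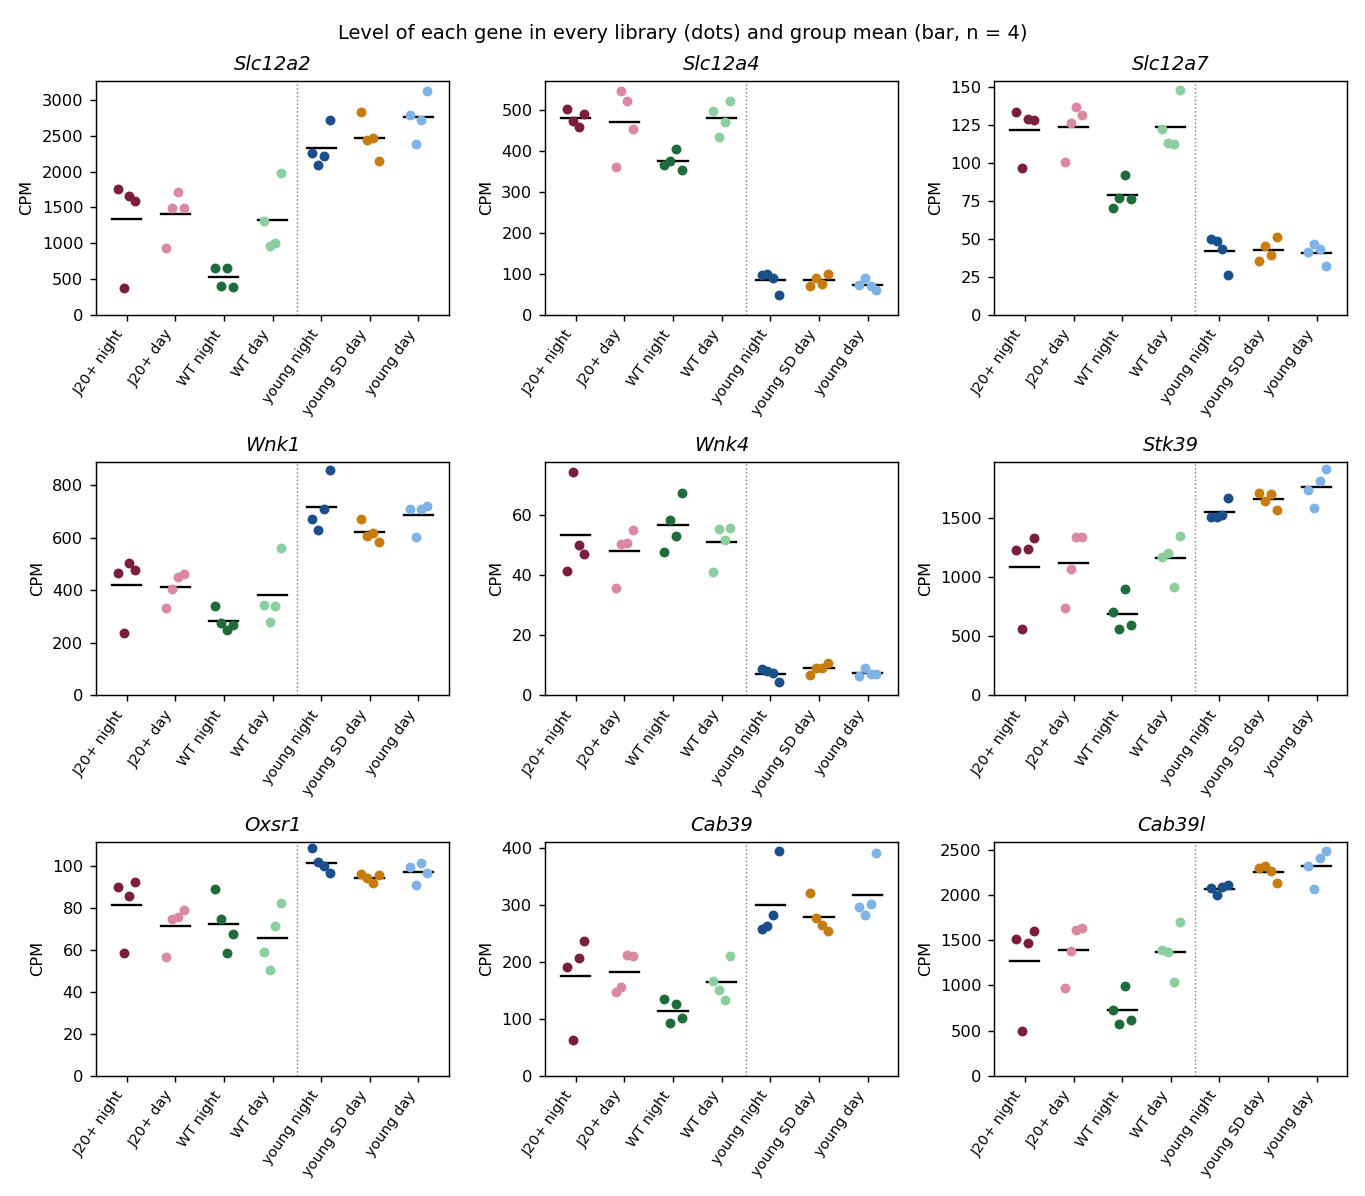
Level of each of the 9 genes in CPM (vertical axis, linear from 0, scaled within each age) in every library, by group along the horizontal axis. Dots are libraries, bars are group means (n = 4), and the dotted line separates aged (left) from young (right) libraries. In the Slc12a2 panel 1 of the 4 J20+ night libraries lies at 370.2 CPM, beside WT night libraries at 383 to 660.0 CPM.

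In aged WT mice, none of the 9 genes was called between night and day, that is, had an edgeR p under 0.05 after adjustment over all genes, although 7 of 9 had a lower value at night. The background was as sparse: 2 of 16065 genes were called in this comparison (0.0124%). The 9 genes had a median log2 fold change of -0.54, against 0.031 for all genes tested. Unadjusted, 5 of the 9 genes were under 0.05, against 31.1% of all genes. DESeq2 on the same counts called 5 of 9, against 9.08% of the 15310 genes to which it gave an adjusted p, so these calls depend on the tool.

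NKCC1 showed the largest difference of the 9. Gene positions here are those of GRCm38. Slc12a2 (Entrez 20496, chr18:57878512-57946821, plus strand) had 660.0, 397, 651 and 383 CPM in the 4 WT night libraries, against 1314, 965, 1008 and 1985 CPM in the 4 WT day libraries. Every night library lay below every day library. The log2 fold change was -1.33 ± 0.41 (SE), a 2.52-fold lower level at night, with an unadjusted p of 0.00525 and an edgeR adjusted p of 0.144. DESeq2 gave -1.32 ± 0.39 (adjusted p = 0.0241).

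The KCC genes had smaller differences and less spread. Slc12a7 (Entrez 20499, chr13:73733052-73816754, plus strand) had 70.2, 77.04, 92.0 and 76.5 CPM in WT night libraries, against 123, 113, 112 and 148 CPM in WT day libraries. The groups did not overlap. Its log2 fold change was -0.65 ± 0.14 (edgeR adjusted p = 0.144). It was called in edgeR at -0.82 once WT night library 3 was left out (adjusted p = 0.0454), when 0.611% of all genes were called. Slc12a4 (Entrez 20498, chr8:105943590-105966149, minus strand) had 366, 375, 405 and 354 CPM in WT night libraries, against 497, 433, 471 and 521 CPM in WT day libraries, again without overlap. Its log2 fold change was -0.36 ± 0.14, and -0.79 ± 0.23 after a correction for GC content (edgeR adjusted p of 0.144 and 0.110). DESeq2 called both KCC genes lower at night.

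Of the kinases and cofactors, SPAK and MO25 beta followed NKCC1. Stk39 (Entrez 53416, chr2:68210445-68472108, minus strand) had 707, 563, 896 and 596 CPM in WT night libraries, against 1172, 1202, 915 and 1347 CPM in WT day libraries. Cab39l (Entrez 69008, chr14:59440934-59548904, plus strand) had 729, 569, 994 and 622 CPM in WT night libraries, against 1396, 1365, 1032 and 1708 CPM in WT day libraries. For both genes the highest night library came close to the lowest day library without overlapping it. Their log2 fold changes were -0.75 ± 0.27 and -0.92 ± 0.32 (edgeR adjusted p = 0.144 for each), and DESeq2 called both lower at night. Cab39 (Entrez 12283, chr1:85793441-85851577, plus strand) and Wnk1 (Entrez 232341, chr6:119923969-120038695, minus strand) had values of -0.54 ± 0.31 and -0.43 ± 0.25. Oxsr1 (Entrez 108737, chr9:119238432-119322684, minus strand) and Wnk4 (Entrez 69847, chr11:101260537-101277409, plus strand) had values in the other direction, 0.14 ± 0.19 and 0.15 ± 0.19. For Cab39, Wnk1, Oxsr1 and Wnk4 night and day libraries overlapped. The share of all genes without overlap between WT night and WT day was not computed. Lack of overlap is therefore not shown to be a trait particular to the genes that had it. With the GC correction the value of Wnk4 was -0.39 ± 0.21.

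The same WT night libraries had lower epithelial markers. The choroid epithelium score, the mean log2 CPM of the 20 markers, averaged 9.34 ± 0.25 in WT night libraries and 10.1 ± 0.20 in WT day libraries (SD, n = 4 each, exact permutation p = 0.0286, the smallest that 4 against 4 allows, adjusted p = 0.314 over 77 tests). All 20 markers had lower values at night, and the summed level of the list ran from 30468 to 40359 CPM in WT night libraries, against 47984 to 51929 CPM in WT day libraries. Of these markers, 3 had a more negative fold change than Slc12a2. Markers of neural tissue had higher values at night. The neural score averaged 5.92 ± 1.20 log2 CPM in WT night libraries and 3.22 ± 1.57 in WT day libraries (SD, n = 4 each, exact permutation p = 0.0571). The 10 oligodendrocyte markers summed to 768 to 6466 CPM in WT night libraries and 147 to 2904 CPM in WT day libraries. The 10 neuron markers summed to 143 to 1198 CPM in WT night libraries and 22.6 to 194 CPM in WT day libraries, and the 10 astrocyte markers summed to 438 to 1786 CPM in WT night libraries and 195 to 577 CPM in WT day libraries. The 8 fibroblast markers summed to 1958 to 2761 CPM in WT night libraries and 3499.9 to 4372 CPM in WT day libraries. The 8 ependyma markers summed to 1110 to 1483 CPM in WT night libraries and 945 to 1274 CPM in WT day libraries. As mean log2 CPM, the ependyma score averaged 5.81 ± 0.12 in WT night and 4.95 ± 0.53 in WT day libraries, without overlap (exact permutation p = 0.0286, adjusted p = 0.314). The fibroblast score, over the 7 markers that passed the filter, averaged 5.84 ± 0.28 in WT night and 6.27 ± 0.26 in WT day libraries, with overlap (exact permutation p = 0.0571, adjusted p = 0.314). No marker on these lists was at 0 in a group. The part of these cell types in the differences of the 9 genes was not tested.

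Set against the epithelial markers of the same library, the gap between night and day was smaller for Slc12a2, Stk39, Cab39l and Slc12a7. With the score subtracted, the difference of WT night minus WT day had the other sign for Slc12a4 (0.38, exact permutation p = 0.0571), Cab39 (0.20, 0.0571), Wnk1 (0.34, 0.200) and Slc12a7 (0.084, 0.400), and it was 0.88 for Oxsr1 (0.0571). With the choroid epithelium score as a covariate in edgeR, the WT night to WT day log2 fold change was -0.087 for Slc12a2, 0.022 for Stk39 and 0.034 for Cab39l, -0.31 for Slc12a7 and -0.21 for Slc12a4. By the same covariate it was -0.027 for Wnk4, 0.51 for Oxsr1, 0.37 for Cab39 and 0.19 for Wnk1. With the neural score as the covariate it was -0.65 for Slc12a2 and -0.17 for Stk39. The log2 CPM of Stk39 minus the score averaged 0.063 ± 0.050 in WT night libraries and 0.087 ± 0.12 in WT day libraries (SD, n = 4 each, exact permutation p = 0.743). The same difference for Slc12a2 averaged -0.36 ± 0.24 in WT night libraries and 0.22 ± 0.29 in WT day libraries (exact permutation p = 0.0571, adjusted p = 0.450). With the score subtracted, Wnk4 was higher in every WT night library (-3.53 ± 0.41) than in any WT day library (-4.41 ± 0.26, exact permutation p = 0.0286, adjusted p = 0.450). This difference of 0.885 contains that of the score itself, which was -0.73 for WT night minus WT day. Wnk4 did not follow the score across aged libraries (r of -0.387). Over 7 comparisons and 9 genes, 3 of 63 such tests had an unadjusted p under 0.05 and 0 passed adjustment.

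In J20+ mice, night and day levels of the 9 genes differed by about 1 SE or less. No gene of the 9 was called by edgeR or DESeq2, 0 were under 0.05 unadjusted, and edgeR called 0.0436% of all genes. Slc12a2 had 1760.2, 370.2, 1658 and 1585 CPM in J20+ night libraries, against 933, 1488, 1715 and 1497 CPM in J20+ day libraries. Night library 1 lay just above the range of the day libraries, night libraries 3 and 4 within it, and night library 2 far below it. The log2 fold change was -0.068 ± 0.40, and 0.25 ± 0.28 without night library 2. Stk39 had 1229, 563, 1235 and 1328 CPM in J20+ night libraries, against 738, 1070.3, 1339 and 1342 CPM in J20+ day libraries. Slc12a7 had 134, 97.02, 129 and 129 CPM in J20+ night libraries, against 101, 126, 137 and 132 CPM in J20+ day libraries. In both genes night library 2 was the lowest of its group and day library 1 the lowest of the day group. The choroid epithelium score of night library 2 was 9.10, against 10.1 to 10.2 in the other 3 night libraries. The 9 genes had a median log2 fold change of -0.023, against 0.015 for all genes tested.

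By day, J20+ and WT mice had like group means for each gene, with wide intervals. No gene of the 9 was called by edgeR or DESeq2 and 0 were under 0.05 unadjusted, as for all genes, of which 0% were called by either tool (300 of 16065 had an unadjusted p under 0.05 in edgeR). Slc12a2 averaged 1408 ± 334 CPM in J20+ day libraries and 1318 ± 471 CPM in WT day libraries (SD, n = 4 each). Its log2 fold change was 0.095 ± 0.40, with a 95% interval of -0.69 to 0.88. Slc12a7 averaged 124 ± 16.3 CPM in J20+ day libraries and 124 ± 16.7 CPM in WT day libraries. Stk39 and Cab39l had log2 fold changes of -0.047 ± 0.27 and 0.023 ± 0.32.

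At night, 8 of the 9 genes had higher values in J20+ than in WT mice, and edgeR called 0 of 9 with all 16 libraries in the fit (0.00622% of all genes called). Unadjusted, 6 of 9 were under 0.05, against 31.9% of all genes. This comparison shares the WT night libraries with the comparison of WT night with WT day. Slc12a2 had a log2 fold change of 1.36 ± 0.41 (edgeR adjusted p = 0.0917), Slc12a7 of 0.63 ± 0.14 (0.0917), Cab39l of 0.80 ± 0.32 (0.114), Stk39 of 0.66 ± 0.27 (0.120) and Slc12a4 of 0.36 ± 0.14 (0.104). DESeq2 called Slc12a2, Slc12a4 and Slc12a7, 3 of 9, against 18.7% of the 15927 genes to which it gave an adjusted p. The median over the 9 genes was 0.62, against -0.0085 for all genes tested and 0.67 for the 20 epithelial markers.

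The edgeR calls depended on which libraries were in the fit. Without J20+ night library 2, 7 of the 9 genes were higher in J20+ night than in WT night mice, all but Wnk4 and Oxsr1, when 57.7% of all genes were called in either direction. Slc12a2 then had a log2 fold change of 1.68 ± 0.28 (edgeR adjusted p = 0.00166), Slc12a7 of 0.73 ± 0.13 (0.0017), Cab39l of 1.08 ± 0.22 (0.00229) and Cab39 of 0.91 ± 0.19 (0.00228). Without WT night library 3 instead, Slc12a7 alone was called, at 0.79 (0.654% of all genes called). With the choroid epithelium score as a covariate, and all 16 libraries, the log2 fold change of Slc12a2 was 0.21 ± 0.20 (edgeR adjusted p = 0.720). The score averaged 9.92 ± 0.55 in J20+ night libraries and 9.34 ± 0.25 in WT night libraries (SD, n = 4 each, exact permutation p = 0.143, adjusted p = 0.458). Markers of neural tissue had lower values in J20+ night libraries: the neural score averaged 3.01 ± 1.53 in J20+ night libraries and 5.92 ± 1.20 in WT night libraries (exact permutation p = 0.0571, adjusted p = 0.314). The 10 neuron markers summed to 20.9 to 403 CPM in J20+ night libraries and 143 to 1198 CPM in WT night libraries, and the 10 oligodendrocyte markers to 138 to 1212 CPM in J20+ night libraries and 768 to 6466 CPM in WT night libraries. The 10 astrocyte markers summed to 193 to 529 CPM in J20+ night libraries and 438 to 1786 CPM in WT night libraries. The ependyma score averaged 4.75 ± 0.41 in J20+ night libraries and 5.81 ± 0.12 in WT night libraries (exact permutation p = 0.0286, adjusted p = 0.314). With the neural score as the covariate the log2 fold change was 0.58 ± 0.44 for Slc12a2 and -0.0033 ± 0.22 for Stk39. The part of these cell types in the differences of the 9 genes was not tested.

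The difference between the genotypes in their night to day change was tested as an interaction. With all 16 libraries edgeR called 0 of the 9 genes and 0% of all genes (2 of 9 and 1992 of 16065 had an unadjusted p under 0.05), and DESeq2 called 0 of 9 and 9 genes in all. For Slc12a2 the J20+ change exceeded the WT change by 1.27 ± 0.57 on the log2 scale (edgeR adjusted p = 0.388). Without J20+ night library 2, 5 of 9 genes were called (Slc12a2, Slc12a7, Stk39, Cab39 and Cab39l), against 20.9% of all genes, and Slc12a2 had a value of 1.59 ± 0.38 (edgeR adjusted p = 0.0422). With the choroid epithelium score as a covariate, and all 16 libraries, it was -0.088 ± 0.27.

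**Figure D2:**
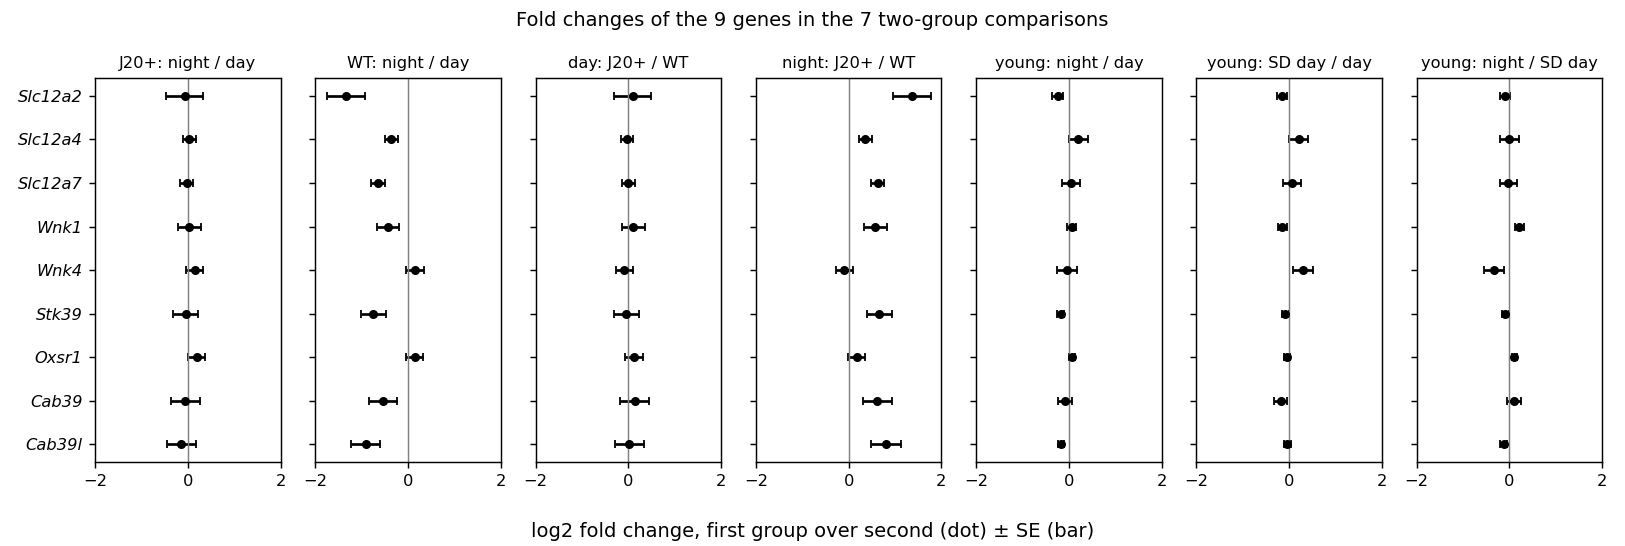
Log2 fold change (dots) with its SE (bars) of each of the 9 genes (rows) in 7 comparisons (panels), first-named group over second, from edgeR. The panels of WT night over WT day and of J20+ night over WT night hold the widest departures from 0, -1.33 and 1.36 for Slc12a2.

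Over 9 genes, 3 library measures and 2 ages, 54 correlations were computed. Across the 16 aged libraries, 7 of the 9 genes were positively correlated with the choroid epithelium score of the library, with permutation adjusted p under 0.05 for both r and rho. The share of all genes with such a correlation was not computed, so the count is not a trait particular to these genes. For Stk39 Pearson's r was 0.983 and Spearman's rho 0.947 (permutation p = 1e-05 for each, the smallest that 100000 resamples give, adjusted p = 4.5e-05), and r was 0.971 without the 2 libraries farthest from the median score. For Cab39l r was 0.977 (rho 0.956, 0.966 without 2 libraries) and for Slc12a2 0.956 (rho 0.921, 0.926 without 2 libraries), with the same permutation p. The relation also held inside groups: with each library centred on its group mean, r was 0.970 for Stk39, 0.970 for Cab39l and 0.936 for Slc12a2. Slc12a7, Cab39 and Wnk1 had r of 0.900, 0.900 and 0.827 (rho 0.891, 0.900 and 0.921, permutation adjusted p of 8.31e-05, 4.5e-05 and 0.000455 for r), and 0.935, 0.862 and 0.767 without 2 libraries. Slc12a4 had r of 0.735 (rho 0.594, permutation adjusted p of 0.00364 and 0.0306), 0.875 without 2 libraries, and 0.504 within groups. Oxsr1 had r of 0.366 and rho of 0.585 (permutation adjusted p of 0.202 and 0.0330), with r of 0.348 without 2 libraries and 0.625 within groups. Wnk4 had r of -0.387 and rho of -0.303 (permutation adjusted p of 0.182 and 0.322), with r of -0.069 without 2 libraries.

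**Figure D3:**
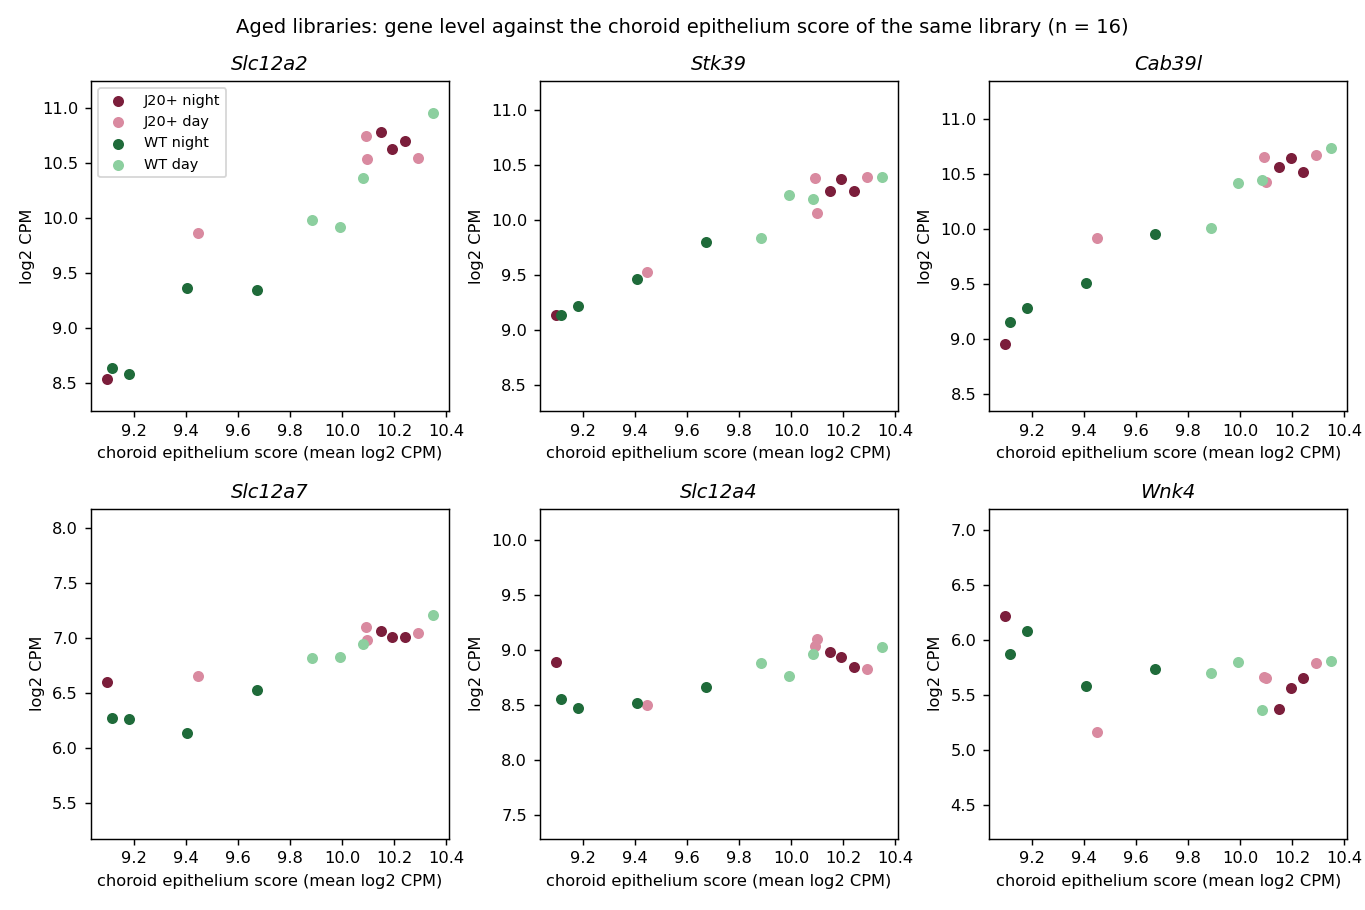
Log2 CPM of 6 genes (vertical axis, 3 log2 units in every panel) against the choroid epithelium score of the same library (horizontal axis, mean log2 CPM of 20 markers) in the 16 aged libraries, each dot a library coloured by group. Slc12a2, Stk39 and Cab39l rise along the score from J20+ night library 2 at 9.10 to the highest WT day library at 10.3, whereas Wnk4 does not.

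The genes differed in how steeply they followed the score. Per log2 unit of the score the fitted slope was 1.81 log2 units for Slc12a2, 1.32 for Cab39l, 1.06 for Cab39, 1.06 for Stk39, 0.74 for Wnk1, 0.68 for Slc12a7 and 0.34 for Slc12a4. Stk39 thus kept a near-constant ratio to the mean of the markers, while NKCC1 varied more than that mean did. Across the same libraries Stk39 and Cab39l correlated with each other at r = 0.99, Slc12a2 with Cab39l at 0.97 and Slc12a2 with Stk39 at 0.94, given as descriptions of libraries that share depth and scaling. The neural score ran the other way, with r of -0.899 for Stk39, -0.852 for Cab39l and -0.783 for Slc12a2 (rho -0.929, -0.891 and -0.788, permutation adjusted p of 4.5e-05, 0.000108 and 0.00127 for r), and of -0.880, -0.806 and -0.739 without the 2 farthest libraries. In the 12 young libraries, where the score covered only 9.69 to 9.96, none of the 9 genes had a permutation adjusted p under 0.05 with it, and r for Slc12a2 was 0.0126 (rho 0.280, permutation p of 0.971 and 0.380).

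In young mice none of the 9 genes was called for time of day or sleep disruption. Between night and day edgeR called 0 of 9, against 0.267% of 14983 genes, and DESeq2 called 0 of 9. Unadjusted, 3 of 9 were under 0.05, against 9.39% of all genes. Slc12a2 had 2263, 2089, 2223 and 2726 CPM in young night libraries, against 2793, 2388, 2718 and 3129 CPM in young day libraries. The groups overlapped through night library 4. The log2 fold change was -0.25 ± 0.11 (edgeR adjusted p = 0.523), a 1.19-fold lower level at night. Stk39 had 1511, 1506, 1529 and 1668 CPM in young night libraries, against 1734, 1584, 1811 and 1912 CPM in young day libraries, with a log2 fold change of -0.18 ± 0.072 (0.472). Cab39l had 2082, 2002, 2086 and 2108 CPM in young night libraries, against 2326, 2065, 2413 and 2489 CPM in young day libraries, with a log2 fold change of -0.17 ± 0.069 (0.487). The 95% interval of the Slc12a2 fold change was -0.46 to -0.027 in young mice and -2.13 to -0.54 in aged WT mice, and the difference between the ages was not tested.

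The KCC and WNK genes had no called difference in young mice. Slc12a4 had 96.7, 101, 89.6 and 48.6 CPM in young night libraries, against 72.3, 89.4, 69.97 and 59.6 CPM in young day libraries, and night library 4 held the lowest value of either group. The log2 fold change of Slc12a4 was 0.20 ± 0.21. Slc12a7, Wnk1 and Wnk4 had log2 fold changes of 0.041 ± 0.19, 0.063 ± 0.10 and -0.034 ± 0.22, and Oxsr1 and Cab39 of 0.064 ± 0.062 and -0.087 ± 0.15. Relative to the choroid epithelium score, Oxsr1 stood higher in every young night library (-3.16 ± 0.046) than in any young day library (-3.29 ± 0.028, SD, n = 4 each, exact permutation p = 0.0286, adjusted p = 0.450) or any young SD library (-3.30 ± 0.044, exact permutation p = 0.0286, adjusted p = 0.450).

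Sleep disruption left no called difference in these genes. Between SD and undisturbed day mice edgeR and DESeq2 each called 0 of 9 genes, 0 of 9 were under 0.05 unadjusted, and each tool called 0% of all genes (359 of 14983 were under 0.05 unadjusted in edgeR). Slc12a2 had 2834, 2446, 2469.6 and 2152 CPM in young SD libraries, against 2793, 2388, 2718 and 3129 CPM in young day libraries, and the groups overlapped (log2 fold change -0.16 ± 0.11). Wnk4 had the largest value, 0.30 ± 0.22, with 8.99 ± 1.58 CPM in SD libraries and 7.32 ± 1.27 CPM in day libraries (SD, n = 4 each). Between night and SD mice edgeR called 0 of 9, against 0.380% of all genes, with 0 of 9 under 0.05 unadjusted and 0 of 9 called by DESeq2. Wnk1 had the smallest p of the 9 there, with 717 ± 100.1 CPM in night libraries and 620 ± 36.1 CPM in SD libraries (log2 fold change 0.21 ± 0.100, edgeR adjusted p = 0.540). The 3 young comparisons share their groups pairwise.

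For most of these genes the spread among young libraries followed a library measure that concerns GC content. This measure was fitted over the genes tested in the same libraries, and the share of all genes that followed it was not computed. Following it is therefore not shown to be a trait particular to these genes. The GC trend of a library is the change of its log2 counts, relative to the mean library of its age, per 10 points of transcript GC content, and it ran from -0.41 in young night library 4 to 0.28 in young SD library 4. Across the 12 young libraries Slc12a4, with a transcript of 57.5% GC, followed it at r = 0.966 (rho 0.958, permutation p = 1e-05, adjusted p = 4.5e-05, r = 0.951 without the 2 farthest libraries). Slc12a2, with 44.2% GC, ran against it at r = -0.922 (rho -0.916, permutation adjusted p = 0.000135, -0.964 without 2 libraries). Slc12a7 and Wnk4 were positive (r of 0.904 and 0.821, rho of 0.930 and 0.762, 0.803 and 0.760 without 2 libraries). Cab39, Stk39 and Wnk1 were negative (r of -0.937, -0.798 and -0.794, rho of -0.923, -0.818 and -0.734, -0.895, -0.870 and -0.621 without 2 libraries). Each of these 5 had permutation adjusted p under 0.05 for r and rho. Cab39l (r of -0.597, rho of -0.629, permutation adjusted p of 0.069 and 0.0518) and Oxsr1 (r of 0.0916, rho of 0.0769, permutation adjusted p of 0.793 and 0.849) did not. Their transcripts hold 41.8% and 48.3% GC. In aged libraries the trend ran from -0.27 to 0.45, highest in J20+ night library 2 and in WT night library 4, and Slc12a2 ran against it at r = -0.981 (rho -0.950, permutation adjusted p = 4.5e-05, r = -0.973 without 2 libraries). Slc12a7 and Slc12a4, positive in young libraries, were negative in aged ones (r of -0.855 and -0.613, rho of -0.912 and -0.621, permutation adjusted p of 0.00024 and 0.0214 for r, r of -0.921 and -0.739 without 2 libraries). Cab39, Cab39l, Stk39 and Wnk1 were also negative in aged libraries (r of -0.970, -0.968, -0.941 and -0.900, permutation adjusted p = 4.5e-05 for each r). Wnk4 had r of 0.585 and Oxsr1 of -0.449 (permutation adjusted p of 0.0292 and 0.115). Whether the genes followed the GC trend or the choroid epithelium score in aged libraries was not tested. A correction for GC content left the WT night to WT day log2 fold change of Slc12a2 at -1.32 and that of young night to young day at -0.19.

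The levels of the 9 genes also differed between the batches. On total counts, Slc12a4 averaged 449 ± 45.2 CPM in the 16 aged libraries and 80.9 ± 19.9 CPM in the 12 young libraries (SD), 5.55-fold higher in aged. Wnk4 averaged 52.8 ± 13.3 CPM in aged libraries and 7.89 ± 2.01 CPM in young libraries, 6.69-fold higher, and Slc12a7 averaged 111 ± 15.3 CPM in aged libraries and 42.3 ± 9.08 CPM in young libraries, 2.62-fold higher. For these 3 genes every aged library lay above every young library, as for 30.1% of the 14713 genes tested at both ages. Slc12a2 averaged 1103 ± 446 CPM in aged libraries and 2508 ± 211 CPM in young libraries, 2.27-fold lower in aged. For Slc12a2, Wnk1, Stk39, Cab39 and Cab39l every aged library lay below every young library, and Oxsr1 overlapped. Thus 8 of the 9 genes did not overlap in one direction or the other, against 48.1% of genes. The 3 genes above had transcripts of 53.3% to 59.0% GC and the 5 below of 41.8% to 49.2% GC. Over all genes the aged minus young difference correlated with transcript GC at r = 0.786, across 13732 genes that are not independent replicates, and its median was -0.83 for genes up to 45% GC and 2.37 for genes above 55% GC. Age and batch cannot be told apart, and no test was made between them.

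**Figure D4:**
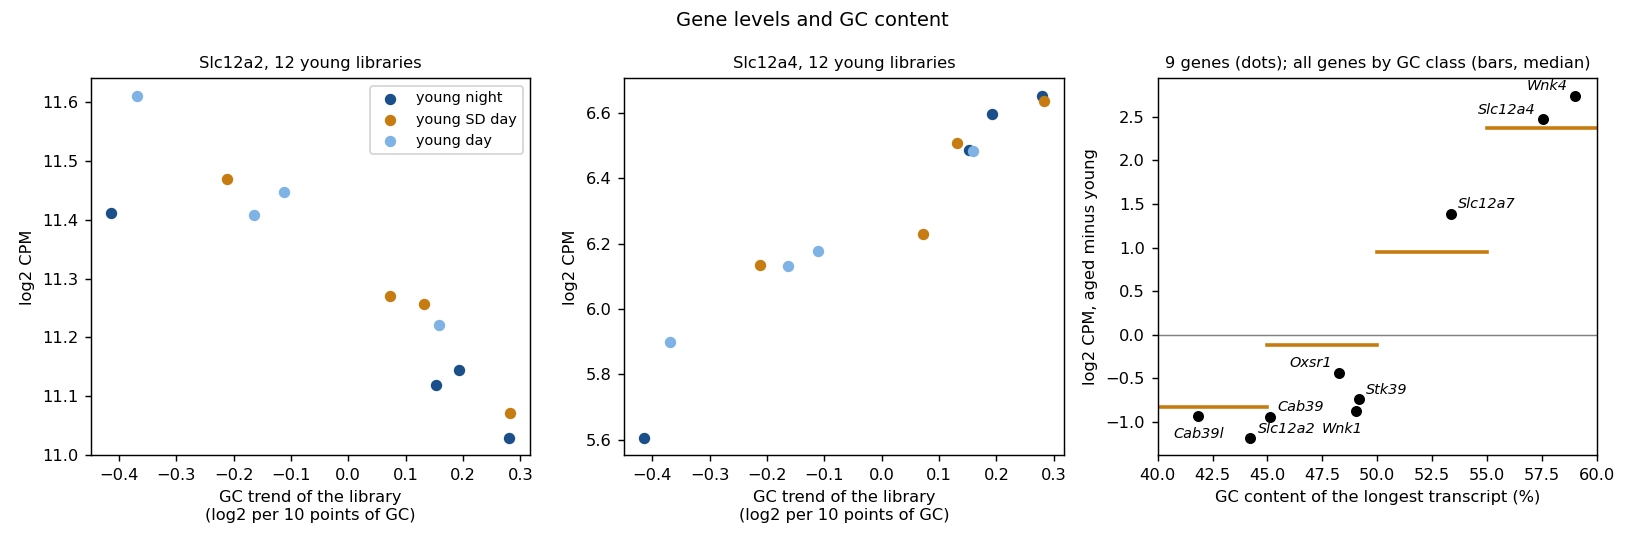
Left and middle, log2 CPM of Slc12a2 and Slc12a4 (vertical axes) against the GC trend of the library (horizontal axes, log2 per 10 points of GC) in the 12 young libraries, each dot a library. Right, log2 CPM in aged minus young libraries (vertical axis) against transcript GC content (horizontal axis) for the 9 genes, with the median of all genes in 4 GC classes as bars; the outer bars hold all genes up to 45% and above 55% GC. Slc12a2 falls and Slc12a4 climbs along the trend (r = -0.922 and 0.966), and Wnk4, Slc12a4 and Slc12a7 are the 3 genes above 0.

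Ratios between these genes differed between the batches as well. Per kilobase of the longest transcript, Slc12a2 exceeded Slc12a4 by a median of 1.53-fold in aged libraries (0.457 to 2.23) and 17.5-fold in young libraries (12.1 to 32.8). Wnk1 exceeded Wnk4 by a median of 2.97-fold in aged libraries and 31.6-fold in young libraries. Per kilobase of all annotated exons the ratio of Wnk1 to Wnk4 was 1.49 in aged libraries (0.578 to 2.04) and 15.8 in young libraries, and that of Slc12a2 to Slc12a4 was 1.03 in aged libraries (0.306 to 1.49) and 11.7 in young libraries, so that in some aged libraries each of these ratios lay below 1. The ratio of Stk39 to Cab39l, a pair of genes below 50% GC, was 0.841 in aged libraries and 0.749 in young libraries. Of the 9 genes, 2 overlap another protein-coding gene in the annotation. Cdadc1 lies on the opposite strand over Cab39l at 59.8 to 150.3 CPM, and Slc22a14 lies on the strand of Oxsr1 at 0 to 0.186 CPM. Annotated antisense RNAs overlap Slc12a4 and Wnk4, and the strand setting used for counting is not given in the sources used here.

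Other genes of the pathway, a list of 40 with further SLC12 members, WNK and STE20 kinases, phosphatases, ubiquitin ligase parts, SGK kinases and chloride channels, had no called member in any comparison. Of these, 39 were tested in aged libraries and 35 in young libraries. Between WT night and WT day 18 of 39 had an unadjusted p under 0.05, against 31.1% of all genes, and DESeq2 called 5 of 39, against 9.08% of the genes to which it gave an adjusted p. Between J20+ night and WT night 17 of 39 had an unadjusted p under 0.05, against 31.9% of all genes, and DESeq2 called 6 of 39, against 18.7% of the genes to which it gave an adjusted p. Their median log2 fold change was -0.025 in the first comparison and 0.17 in the second, against -0.54 and 0.62 for the 9 genes. The smallest p-values between WT night and WT day belonged to Rell2 (1.74 ± 0.43) and Relt (1.89 ± 0.60), which encode related receptor proteins that bind SPAK and OSR1 (edgeR adjusted p = 0.144 for each). Between J20+ night and WT night they belonged to the ubiquitin ligase Nedd4 (1.32 ± 0.39) and the kinase Stk26 (1.36 ± 0.41, edgeR adjusted p = 0.0917 for each), and for the interaction to Relt (-2.53 ± 0.84) and the ubiquitin ligase Nedd4l (-2.46 ± 0.91, 0.359 for each). Between J20+ night and J20+ day they belonged to Wnk2 (-0.48 ± 0.15) and the deubiquitinase Otud1 (0.33 ± 0.21), and between J20+ day and WT day to Wnk2 (0.36 ± 0.15) and Wnk3 (0.85 ± 0.42). In young mice they belonged to the channel subunit Lrrc8d (-0.23 ± 0.089) and the phosphatase subunit Ppp1cc (-0.17 ± 0.067) between night and day, and to Slc12a9 (0.68 ± 0.32) and Rell1 (-0.20 ± 0.11) between SD and day. Lrrc8d had a value of -0.16 ± 0.089 between night and SD.

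The genes whose pattern was most like that of Slc12a2 were sought over all 28 libraries, each age centred on its own mean, among the 8486 genes tested at both ages whose log2 CPM averaged 3 or more. Among the closest were the sodium-bicarbonate transporter Slc4a10 (Pearson r = 0.994), the ciliary gene Cep290 (0.988), the nuclear envelope gene Tor1aip1 (0.988) and the thioredoxin-related gene Tmx1 (0.988). The transcripts of these 4 held 38.7% to 47.0% GC, beside 44.2% for Slc12a2. Of the other 8 genes, Cab39l was closest, at rank 171 (r = 0.960), followed by Stk39 at rank 504 (0.940) and Cab39 at rank 988 (0.913).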

How the data were processed

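Choroid plexus mRNA was sequenced from 28 mice with a stranded poly(A) kit, per the labels' protocols. The authors deposited raw counts per Entrez gene in 2 tables, 1 per batch. The submitters' processing notes list featureCounts 2.0.1, HISAT2 2.2.1, the build mm10, Picard 2.18.2, cutadapt, DESeq2 and FastQC 0.11.8, with no role or order. The strand setting of the counting, and how multi-mapped reads were handled, is not given in the sources used here. No column was left unused.

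Counts were fitted per age with edgeR 4.0.16 (limma 3.58.1, R 4.3.3): TMM scaling, filterByExpr, robust quasi-likelihood tests, and Benjamini-Hochberg adjustment over all genes at 0.05. CPM used TMM library sizes, except across ages, where total counts were used. DESeq2 1.42.0, RLE scaling, no filter, a choroid epithelium or neural marker score as covariate, and leaving out each library were alternatives. A correction for GC content (loess, span 0.3) was added after the data were seen. Exact and permutation tests used numpy 2.4.6 and pandas 2.3.3 (Python 3.11.15). The fit was tested on simulated data. Symbols matched 25275 of 27179 identifiers (93.0%), and 100 of 101 marker genes. Promoter windows come from RefSeq.

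The 9 genes, the pathway list and the markers were chosen with earlier results of these data known. All 9 genes were named throughout, and from the pathway list the 2 genes with the smallest p in each comparison. From all genes, the 5 most like Slc12a2 by Pearson correlation were named. Of the genes these rules pick, 2 are not reported here. The genes overlapping a named gene on either strand, and the clock genes, were named as checks. Library totals ran from 14632090 to 43885900 counts. Counting error was not set against the spread between mice gene by gene, and Wnk4 rested on only 109 to 320 counts in young libraries.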

Additional observations from a re-analysis of the deposited data

Results flagged for a closer look

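In groups of 4 libraries, the lowest or highest value was set against the gap to its nearest neighbour, relative to the range of the group. In 9 of 70 groups tested this gap passed the 95% limit of Dixon's test, where chance flags about 1 in 20 groups. The tests reuse the same libraries over genes whose levels followed each other, so the 9 flags are not independent events.

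J20+ night library 2 gave 6 of the 9. Its level was 370.168 CPM for Slc12a2, 97.0227 CPM for Slc12a7, 236.564 CPM for Wnk1, 563.139 CPM for Stk39 and 495.743 CPM for Cab39l, each the lowest of its group, and its choroid epithelium score was 9.09705. The same library had the highest GC trend of the 16 aged libraries, 0.45, and a neural score of 4.96, against 1.53 to 3.45 in the other J20+ night libraries. Their part in its levels was not tested.

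In young mice, day library 2 had the lowest Wnk1 level of its group, 602.278 CPM, and day library 4 the highest Cab39 level of its group, 390.19 CPM. Young night library 4 had the highest Stk39 level of its group, 1668.26 CPM.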

How the results depend on the processing

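The 9 genes gave 72 fold changes over 8 comparisons and 1080 alternative values, of which 22 passed the threshold only under an alternative. In the edgeR fit of all libraries none of the 72 was called, and under the alternatives 114 values changed sign without being called on either side. DESeq2 called 5 of the 9 genes between WT night and WT day and 3 between J20+ night and WT night, where edgeR called 0. Leaving out 1 library each gave 0 to 1 called genes of the 9 for WT night and WT day, 0 to 7 for J20+ night and WT night, and 0 to 5 for the interaction. The upper values came without WT night library 3 in the first case and without J20+ night library 2 in the other cases. The cause was not tested.

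Counts over all genes moved more. Between young night and young day 40 genes were called, against 260 with DESeq2, 93 with the GC correction, 73 with the neural covariate, and 15 (without day library 3) to 109 (without night library 4) with 1 library left out. Leaving out night library 1, 2 or 3 or day library 1 or 4 gave 18 to 22. Between young night and SD 57 were called, against 312 with DESeq2, 128 with the GC correction, 103 with the neural covariate, and 22 (without SD library 2) to 86 (without night library 4), with 24 to 34 without SD library 3 or 4 or night library 1, 2 or 3. Between WT night and WT day 2 were called, against 1390 with DESeq2, 5 with either covariate or the GC correction, and 2 to 100 (without WT night library 3). Between J20+ night and J20+ day 7 were called, against 79 with DESeq2, 2 with RLE scaling, 4 with no filter, 17 with the epithelium covariate, 3 with the GC correction, and 2 to 5. Between J20+ night and WT night 1 was called, against 2978 with DESeq2, 0 with RLE scaling, no filter, either covariate or the GC correction, and 0 to 9414 (without J20+ night library 2). The interaction called 0, against 9 with DESeq2 and 0 to 3409 (without J20+ night library 2). Of 630 alternative values relative to the epithelial score, 48 changed sign and 0 moved by 1 SD or more. Leaving out 1 of 4 libraries cannot move such a difference by 1 SD, and library scaling cancels in it. The 0 therefore does not show that these differences are stable. No paired analysis was possible because the replicate numbers follow the order of the records and the mice of different groups were not matched.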
